A study of Mus musculus with 8 samples.

Results

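The tubulin isotype genes examined here are 6 β-tubulin genes (Tubb2a, Tubb2b, Tubb3, Tubb4b, Tubb5 and Tubb6) and 4 α-tubulin genes (Tuba1a, Tuba1b, Tuba1c and Tuba4a), 10 of the 20189 genes in the expression table. They were chosen by name with the acetate and vehicle values of this comparison already known, so their levels, differences and shares between the groups are a description and carry no test. The mRNA came from cultures of 4T1, a line of mammary carcinoma cells of the mouse with a wild-type label, kept for 48 h with 5 mM acetate or with water as the vehicle, in the same serum-containing DMEM. Each group has 4 libraries numbered 1 to 4, and the vehicle and acetate libraries of a number form a pair. All libraries come from a single cell line in culture. The values are reads scaled so that every library sums to 20000000, called normalised reads below.

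Microtubules are built from dimers of α- and β-tubulin, and mammals carry several genes for each. The encoded proteins are nearly the same along most of their length and differ mainly in the acidic tail at the C-terminus, where enzymes add glutamate or glycine chains and where motors and other microtubule-associated proteins bind. Cells hold the supply of tubulin steady by degrading tubulin mRNA when free dimers are abundant, a loop in which Ttc5 recognises the nascent tubulin chain on the ribosome. Tubb5 and Tuba1b are widely expressed in dividing cells, Tubb3 is best known from neurons, and Tubb2a, Tubb2b and Tuba1a are prominent in the nervous system without being restricted to it.

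Close relatives among these genes share much of their sequence, which bears on how reads can be assigned. The last 75 coding bases of Tubb2a and Tubb2b, which encode the tail and the stop codon, are shown because these genes gave the largest differences between the groups among the isotypes with more than 18 reads per library. Capitals mark the 3 bases at which they differ, and both are read from the minus strand of GRCm38, at chr13:34074468-34074542 for Tubb2a and chr13:34127471-34127545 for Tubb2b.
Tubb2a: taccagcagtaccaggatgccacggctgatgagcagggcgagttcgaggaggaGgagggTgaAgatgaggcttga
Tubb2b: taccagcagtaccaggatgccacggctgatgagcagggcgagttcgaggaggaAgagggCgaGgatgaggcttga
Translated in frame, the 2 stretches differ in 0 residues, so the tails of these isotypes are the same. The coding sequences of Tubb2a and Tubb2b were identical at 1291 of 1338 bases, or 96.5%. Among the α genes, those of Tuba1a and Tuba1b were 98.3% identical.

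The libraries were sequenced with 75-base reads, and the share of 75-base stretches of each gene's exons that also occur in another gene gives the part of a gene whose reads cannot be placed by sequence alone. It was 43.2% for Tubb2a, of which 40.2% of all stretches were shared with Tubb2b, and 30.2% for Tubb2b. It reached 68.2% for Tuba1a, 64.3% for Tuba1b and 48.9% for Tuba1c, and 27.7% for Tubb4b, mostly through the pseudogene Tubb4b-ps1. It was 0% for Tubb3, Tubb5, Tubb6 and Tuba4a. How reads that match several genes were counted is not given in the sources used here, so the split of reads within the Tubb2a and Tubb2b pair and within the Tuba1 genes is uncertain. Sums over close relatives are given beside the single genes.

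Levels of different genes were compared per kilobase of exon. In the vehicle libraries Tubb5 led with 15299 ± 1750 normalised reads per kilobase (SD, n = 4), above every other isotype in every library. Tubb4b (4219 ± 847), Tuba1b (3314 ± 366), Tubb6 (2208 ± 435), Tuba1c (2175 ± 475) and Tuba1a (1935 ± 111) followed, and each of these overlapped in its range over the 8 libraries with the next of them. Tuba4a (636 ± 220) and Tubb2a (519 ± 35.9) lay lower and overlapped with each other. Tubb2b stood apart at 155 ± 3.67, and Tubb3 came last at 4.46 ± 2.66. The isotypes with the largest differences between acetate and vehicle were thus among the lowest in the β family.

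**Figure D1:**
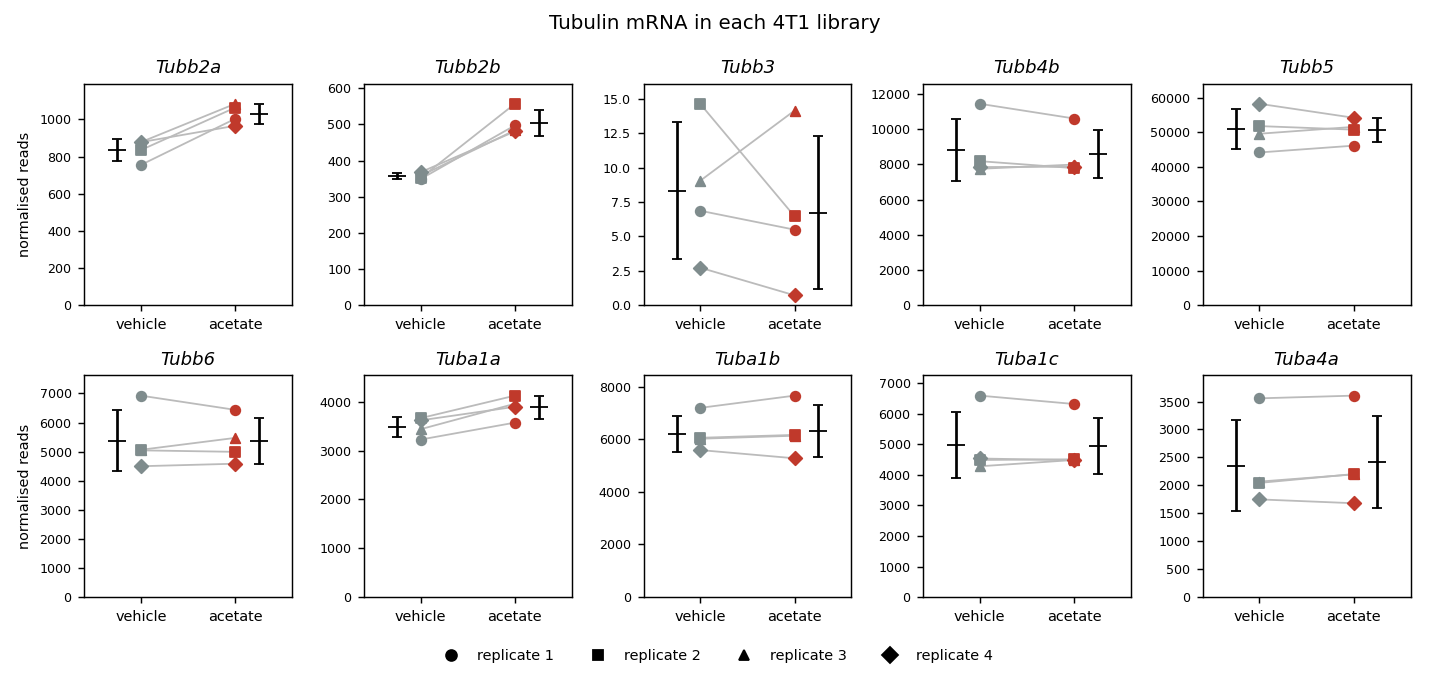
Normalised reads of the 10 tubulin isotypes in each library, with vehicle in grey, acetate in red, a marker shape for each replicate, grey lines joining pairs and black bars for the mean ± SD of 4 libraries; every vertical axis starts at 0 and differs between panels. The acetate and vehicle points separate for Tubb2a and Tubb2b, all lines rise for Tuba1a, and replicate 1 stands above the others for Tubb4b, Tubb6, Tuba1b, Tuba1c and Tuba4a in both groups.

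Tubb2b, a β-tubulin known for its role in neuronal migration, had the largest difference among the isotypes with more than 18 reads per library. It gave 349, 352, 358 and 368 normalised reads in vehicle libraries 1 to 4 and 498, 557, 484 and 481 in acetate libraries 1 to 4. The groups did not overlap, and the vehicle libraries lay close together, with a mean of 357 ± 8.42 against 505 ± 35.6 in acetate (SD, n = 4). The log2 differences within pairs, on the scale of log2(value + 1) used throughout, were 0.51, 0.66, 0.43 and 0.39, a mean of 0.50 ± 0.12 and a 1.42-fold ratio of the means.

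Tubb2a, the neighbouring gene, differed in the same direction by less. It gave 755, 835, 878 and 878 normalised reads in vehicle and 1004, 1064, 1084 and 966 in acetate. Again the groups did not overlap, and acetate library 4 came closest to the vehicle libraries. The means were 836 ± 57.8 and 1029 ± 54.4, a 1.23-fold ratio, and the log2 differences were 0.41, 0.35, 0.30 and 0.14. Tubb2a and Tubb2b together summed to 1193 ± 64.6 normalised reads in vehicle and 1534 ± 76.2 in acetate, and this sum did not overlap between the groups. The ratio of Tubb2a to Tubb2b reads was 2.34 ± 0.125 in vehicle and 2.04 ± 0.140 in acetate, lower in acetate in 4 of 4 pairs.

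Tuba1a, an α-tubulin abundant in developing neurons, showed a smaller and very even difference. It gave 3228, 3666, 3440 and 3622 normalised reads in vehicle and 3576, 4129, 3963 and 3901 in acetate. The groups overlapped, since acetate library 1 lay below vehicle libraries 2 and 4, yet each acetate library was above the vehicle library of its own number. The log2 differences were 0.15, 0.17, 0.20 and 0.11, with a mean of 0.16 ± 0.04 and a 1.12-fold ratio of the means. Summed with its close relatives Tuba1b and Tuba1c, which share most of its sequence, it gave 14678 ± 1573 normalised reads in vehicle libraries and 15150 ± 1678 in acetate libraries, with overlapping groups, 3 of 4 pairs higher and a mean log2 difference of 0.05 ± 0.04.

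The abundant isotypes showed no such separation. Tubb5, the main β-tubulin of these cells, gave 44125, 51746, 49536 and 58192 normalised reads in vehicle libraries 1 to 4 and 46098, 50715, 51526 and 54141 in acetate. The acetate values lay inside the vehicle range, with log2 differences between −0.10 and 0.06 and 2 of 4 pairs higher. Tubb4b, a widely expressed isotype that is also found in cilia, gave 11449, 8187, 7754 and 7851 in vehicle and 10611, 7791, 7994 and 7874 in acetate, so library 1 was the highest of both groups. Tubb6, a β-tubulin of low abundance in most tissues, gave 6924, 5044, 5062 and 4497 in vehicle and 6435, 4992, 5472 and 4584 in acetate. Each of these genes was higher in 2 of 4 pairs.

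The remaining α genes also overlapped between the groups. Tuba1b, the widely expressed α-tubulin, gave 7192, 6055, 6020 and 5588 in vehicle and 7658, 6164, 6134 and 5276 in acetate, higher in 3 of 4 pairs. Tuba1c, close to it in sequence, gave 6595, 4488, 4281 and 4536 in vehicle and 6320, 4510, 4488 and 4481 in acetate, higher in 2 of 4 pairs. Tuba4a, the isotype whose gene encodes no C-terminal tyrosine, gave 3558, 2044, 2067 and 1748 in vehicle and 3606, 2202, 2196 and 1680 in acetate, higher in 3 of 4 pairs. In all 3 of these genes library 1 was the highest of both groups. Over Tubb5, Tubb4b, Tubb6 and these 3 α genes the mean log2 differences lay between −0.03 and 0.04, and for Tubb6 and Tuba1b the sign changed under median-of-ratios scaling, from 0.00 to −0.01 and from 0.02 to −0.00. Tubb3, the neuronal isotype, was at the edge of detection with 1 to 18 reads per library, from 2.73 to 14.6 normalised reads in vehicle and from 0.719 to 14.2 in acetate.

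**Figure D2:**
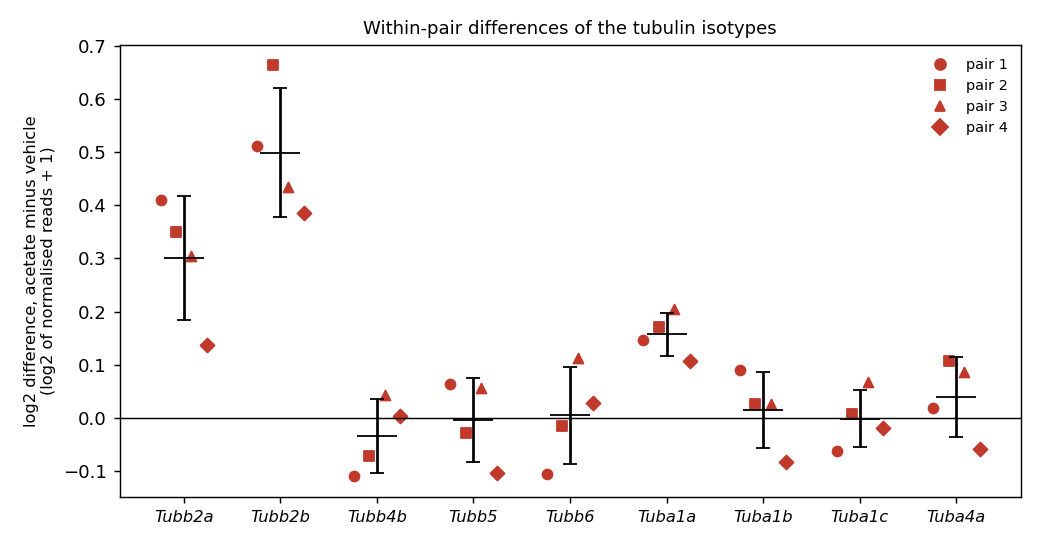
Log2 difference of acetate minus vehicle within each of the 4 pairs (points, a marker shape for each pair) for 9 isotypes, with the mean ± SD in black; Tubb3 is left out because of its low reads. All 4 points lie above 0 for Tubb2a, Tubb2b and Tuba1a, and the other 6 genes scatter around 0, between −0.11 and 0.11.

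Across all genes, limma without the replicate number as a block called 0 of 20189 genes at an adjusted p under 0.05 (0%), and 353 genes had an unadjusted p under 0.05, among them 2 of the 10 isotypes. With the replicate number as a block it called 1744 genes (8.64%), of which 1209 were higher in acetate (5.99%) and 535 lower (2.65%). The balance depended on the scaling, with 1000 higher and 821 lower under median-of-ratios, and the number fell to 409 without pair 3. edgeR with the block called 2400 genes (11.9%), 1314 higher (6.51%) and 1086 lower (5.38%). Tubb2a, Tubb2b and Tuba1a were among those higher in both blocked fits, which is 3 of 10 isotypes, with limma standard errors of 0.05, 0.06 and 0.03 on the log2 scale, and none was among those lower. The groups did not overlap and were higher in acetate for 201 genes (0.996%), among them 2 of the 10 isotypes, and 3365 genes (16.7%) were higher in all pairs, among them 3. Since the isotypes were selected on this comparison, nothing is read from their counts. Without pair 2, Tuba1a was no longer called, and without pair 3 neither Tubb2a nor Tuba1a was, which left Tubb2b called with any 1 pair removed. For the same reason, calls kept or lost in this way are a description and no support.

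The share of each isotype in its family's reads sets these differences against the whole supply. Tubb5 accounted for 76.6% ± 5.05 of β-tubulin reads in vehicle and 76.5% ± 3.61 in acetate. Tubb4b made up 13.4% ± 3.15 and 13.0% ± 2.29, and Tubb6 8.18% and 8.14%. Tubb2a was a minor part in every library, at 1.19%, 1.26%, 1.38% and 1.22% of β-tubulin reads in vehicle and 1.55%, 1.63%, 1.63% and 1.42% in acetate. Its share did not overlap between the groups and was higher by 0.296 ± 0.087 percentage points. Tubb2b held 0.549%, 0.531%, 0.563% and 0.512% in vehicle and 0.770%, 0.856%, 0.727% and 0.707% in acetate, a difference of 0.226 ± 0.070 points, again with no overlap. Tubb3 contributed 0.013% in vehicle and 0.010% in acetate.

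Among α-tubulin reads, Tuba1b held the largest share, 36.6% in vehicle and 35.8% in acetate, followed by Tuba1c with 29.0% and 28.1%. The share of Tuba1a was 15.7%, 22.6%, 21.8% and 23.4% in vehicle and 16.9%, 24.3%, 23.6% and 25.4% in acetate. Library 1 was far below the rest in both groups, so the groups overlapped, but the share was higher within every pair, by 1.21, 1.72, 1.85 and 2.06 points. The share of Tuba1c was lower in acetate in 4 of 4 pairs, by a mean of 0.920 ± 0.950 points, although its level differed by −0.00 on the log2 scale. Tuba4a was 13.6% and 13.5%. Counted per kilobase of exon, Tubb5 was 68.2% of the β genes in vehicle, Tubb2a went from 2.32% to 2.86%, Tubb2b from 0.694% to 0.984% and Tuba1a from 24.3% to 26.3% of the α genes, so the shares of these 3 genes were higher in acetate by either measure. Counted per 75-base stretch that occurs in no other gene, which fits only if reads matching several genes were left out, the values moved further. Tubb2a then went from 3.95% ± 0.342 to 4.84% ± 0.314, a difference of 0.894 points, and Tubb2b from 0.935% to 1.32%. Tuba1a went from 31.0% to 33.2% on that scale, above Tuba1c with 21.1% and 20.2%, while Tuba4a was 2.87% of the α genes in vehicle, so the order of the α isotypes depends on the scale.

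**Figure D3:**
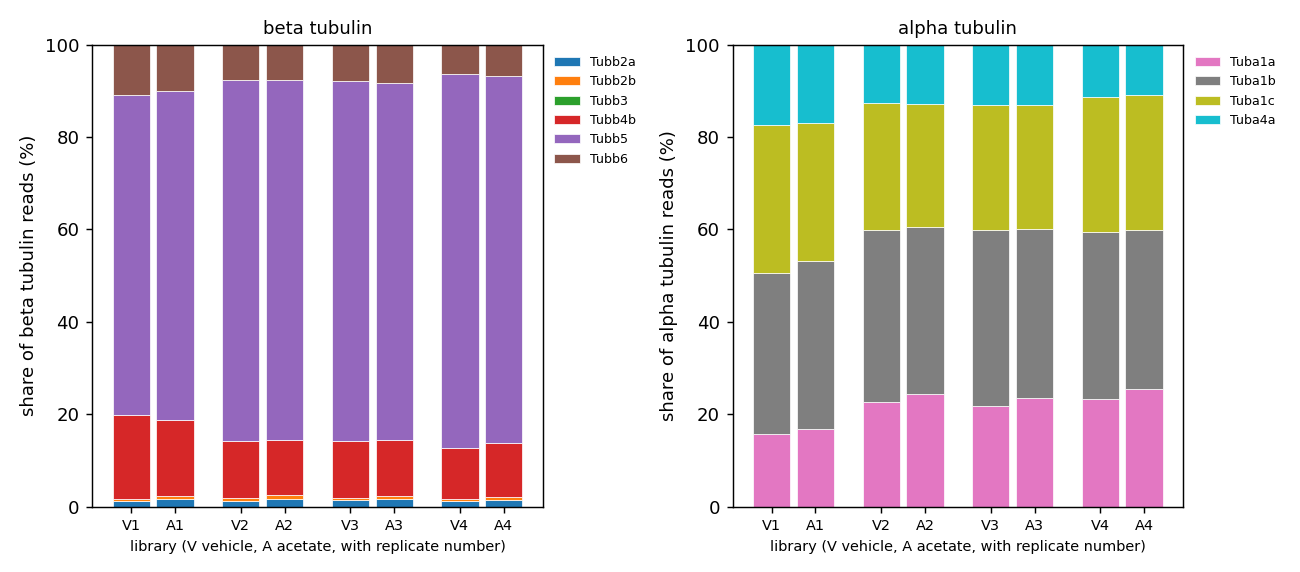
Stacked bars of the share of each isotype in β-tubulin reads (left, %) and α-tubulin reads (right, %) in each of the 8 libraries, with the vehicle (V) and acetate (A) library of a pair side by side. Tubb5 fills most of every β bar, Tubb2a and Tubb2b form the thin bands at the base, and pair 1 has the lowest Tubb5 share (69.4% and 71.3%) and the lowest Tuba1a share (15.7% and 16.9%).

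The totals of the families barely differed. The 4 α genes summed to 17032 ± 2381 normalised reads in vehicle and 17571 ± 2504 in acetate, higher in 3 of 4 pairs with a mean log2 difference of 0.04 ± 0.04. The 6 β genes summed to 66293 ± 3860 and 66099 ± 1534, a mean log2 difference of −0.00 ± 0.06. Together the isotypes took between 0.397% and 0.436% of all reads. The ratio of β to α reads was 3.95 ± 0.638 in vehicle and 3.82 ± 0.574 in acetate, lower in acetate in 4 of 4 pairs, by 0.05 ± 0.03 on the log2 scale. Without Tubb2a and Tubb2b the β sum differed by −0.01, and without Tuba1a the α sum by 0.01.

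The replicate numbers also differed from each other. Averaged over both groups, replicate 1 exceeded the mean of the other numbers 1.81-fold for Tuba4a, 1.45-fold for Tuba1c, 1.39-fold for Tubb4b, 1.35-fold for Tubb6 and 1.27-fold for Tuba1b. Tubb5 (0.858-fold), Tuba1a (0.899-fold) and Tubb2a (0.920-fold) were lower there, and Tubb2b was 0.977-fold. Tubb2b also had the smallest spread between replicate numbers, an SD of 0.04 on the log2 scale against 0.45 for Tuba4a. Depth ranged from 19895088 to 29305620 reads in vehicle and from 21192752 to 27826746 in acetate. The 5 mammary epithelium markers were all in the table, with summed levels of 42130 to 59632 in vehicle and 44422 to 60637 in acetate. Of the neuron markers, which bear on isotypes known from neurons, 3 of 6 were listed, and Rbfox3, Snap25 and Dcx were not in the table. Their sum, mostly Map2, was 510 to 1030 in vehicle and 561 to 1111 in acetate. Fibroblast markers (3 of 5 listed) summed to 229 to 1523 in vehicle and 394 to 1998 in acetate, the leukocyte marker listed (1 of 5) stayed at or below 3.02 and the endothelium markers (2 of 3) summed to at most 7.06. Several markers moved with acetate in the limma fit with the block, each higher in 4 of 4 pairs with overlapping groups. They were the fibroblast markers Pdgfra (994 ± 544 in vehicle, 1367 ± 680 in acetate, adjusted p = 0.000372) and Pdgfrb (at most 46 reads, adjusted p = 0.0119), the epithelial markers Krt19 (log2 difference 0.40, adjusted p = 0.000254) and Cdh1 (0.15, adjusted p = 0.00592), and Map2 among the neuron markers. The other epithelial markers were not called, with log2 differences of 0.07 for Epcam, −0.06 for Krt8 and −0.05 for Krt18. Among the neuron markers, Syp (0.23, at most 12 reads) and Elavl3 (−0.84, at most 3 reads) were not called. The fibroblast marker Dcn (0.72, at most 18 reads) was not called either. The part of the markers in the isotype differences was not tested.

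The genes lie at the following places in GRCm38. Tubb2a (ENSMUSG00000058672) and Tubb2b (ENSMUSG00000045136) are neighbours on the minus strand, at chr13:34074274-34078007 and chr13:34126748-34130466. Tuba1b (chr15:98931425-98934565), Tuba1a (chr15:98949837-98953703) and Tuba1c (chr15:99029891-99038110) form a cluster. Of the other measured genes within 250 kb of Tubb2a and Tubb2b, 0 of 10 were called with the block, with a median log2 difference of −0.01. Around the Tuba1 genes 2 of 25 were called, both higher, with a median of 0.06, a share near the 8.64% of all genes. These were Arf3, a small GTPase of the Golgi, which went from 3510 ± 253 to 4013 ± 245 (limma with the block, adjusted p = 0.0029), and C1ql4, which had at most 10 reads in any library. The window was chosen after the values of the isotypes were seen. Without the block, none of these neighbours passed. Tuba4a overlaps the opposite-strand gene Stk16, which was 921 ± 165 in vehicle and 879 ± 191 in acetate, and Tuba1b overlaps the antisense gene Gm41396, which had 4 to 11 reads. On the same strand, the protein-coding gene Gm49450 overlaps both Tuba1a and Tuba1b, and Gm20388 overlaps Tubb3. Fam166a overlaps Tubb4b on the opposite strand. How reads in such overlaps were counted is not given in the sources used here.

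The promoter of Tubb2a is shown because the gene was higher in acetate and its entry holds several known motifs. The 150 bases before its start, from RefSeq on GRCm38.p6, lie at chr13:34078009-34078158 on the minus strand, and capitals mark the motifs found.
Tubb2a promoter: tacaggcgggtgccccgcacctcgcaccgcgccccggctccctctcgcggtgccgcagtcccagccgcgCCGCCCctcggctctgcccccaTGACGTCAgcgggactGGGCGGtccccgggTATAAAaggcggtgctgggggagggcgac
Motifs were searched in the 250 bases before the start, and 8 of the 10 isotypes matched an entry, without Tubb2b and Tubb6. TGACGTCA, the cAMP response element, was present in 1.55% of 32851 promoters and in Tubb2a alone among the 8. TATAAA on the gene's strand was present in 7.59% of promoters and again only in Tubb2a among the 8. GGGCGG on either strand was present in 32.7% of promoters and in 6 isotypes, and CCAAT on either strand in 33.8% and in 5 isotypes (Tubb3, Tubb4b, Tubb5, Tuba1a and Tuba1c). The matches describe letters in these windows and say nothing of whether a factor binds.

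Genes that fold, modify and organise tubulin were not used in choosing the isotypes and were tested in the fit over all genes. The lists were chosen with earlier results of these data known, so their calls are not an independent test. Of 132 genes in 11 lists, 115 were measured. Without the block 0 of 115 passed, and 0 fell under 0.05 before adjustment. limma with the block called 6 (5.22%, against 8.64% of all genes), 5 higher and 1 lower in acetate. edgeR with the block called 15 of the 115, 9 higher and 6 lower, where it called 11.9% of all genes. How the lists stood against all genes thus depended on the tool. The median log2 difference of the 115 genes was 0.01, against 0.02 for all genes.

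Of 6 other tubulin genes, 5 were higher in acetate on average. The 1 called by limma with the block (16.7%, against 8.64% of all genes) was Tuba8, an α-tubulin known from muscle and testis. It gave 42.0, 39.9, 38.2 and 83.3 normalised reads in vehicle and 65.1, 73.5, 56.6 and 94.9 in acetate, higher in 4 of 4 pairs with overlapping groups (limma with the block, log2 difference 0.56, SE 0.14, adjusted p = 0.0294). Tuba8 was not called with any 1 pair left out. None of the 15 CCT chaperonin and prefoldin genes, which fold new tubulin, passed in limma with the block, and their median was −0.04. edgeR with the block called 2 of them lower, Cct4 (log2 difference −0.09, adjusted p = 0.0236) and Cct6a (−0.08, adjusted p = 0.03). Over all genes it called 5.38% lower. None of the 7 tubulin cofactors, which assemble the dimer, passed in either tool, with a median of −0.09 and 0 of 7 higher on average. Of the 4 genes of tubulin mRNA autoregulation none passed in either tool, and Ttc5 was 746 ± 233 and 793 ± 249 (log2 difference 0.08, adjusted p = 0.223 with the block).

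The enzymes that set acetylation of α-tubulin did not pass in either tool. Atat1, the acetyltransferase, was 390 ± 152 in vehicle and 421 ± 152 in acetate (log2 difference 0.13, adjusted p = 0.178 with the block). Hdac6, the main tubulin deacetylase, was 895 ± 212 and 898 ± 187 (adjusted p = 0.912). Sirt2, a second deacetylase of tubulin, was 801 ± 172 and 867 ± 138 (adjusted p = 0.106). A p that misses the threshold does not show that the levels were equal. None of the 4 measured genes of detyrosination and tyrosination passed in limma or edgeR. Of the 17 genes that add or remove glutamate and glycine chains, limma with the block called 1 higher (5.88%, against 5.99% of all genes). Tpgs2, a subunit of the tubulin polyglutamylase complex, went from 244 ± 36.8 to 287 ± 28.8 (log2 difference 0.24, SE 0.07, adjusted p = 0.0448 with the block), and this call was lost under median-of-ratios scaling and with either other pseudocount. edgeR with the block called 3 of the 17 higher, adding Ttll1 (adjusted p = 0.0347) and Ttll7 (adjusted p = 0.0496), both glutamylases. Over all genes it called 6.51% higher.

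Of 23 measured microtubule-binding and plus-end genes, limma with the block called 3, all higher, a share (13.0%) to be read against 8.64% of all genes called and 5.99% called higher. Mapre3, which tracks growing plus ends, gave 109, 287, 247 and 390 normalised reads in vehicle and 146, 376, 345 and 487 in acetate. Library 1 was lowest in both groups and the groups overlapped, while Mapre3 was higher in 4 of 4 pairs (log2 difference 0.40, SE 0.06, adjusted p = 0.00206 with the block). Dclk1, a doublecortin-family kinase that binds microtubules, went from 781 ± 106 to 914 ± 188 (0.21, adjusted p = 0.0246). Map2, a microtubule-stabilising protein best known from dendrites, went from 837 ± 225 to 930 ± 251 (0.15, adjusted p = 0.0264). None of the 8 genes of the γ-tubulin ring complex, which nucleates microtubules, passed in limma with the block. edgeR with the block called Mzt1 (1779 ± 33.8 in vehicle, 1646 ± 42.0 in acetate, adjusted p = 0.0169) and Tubgcp3 (adjusted p = 0.0368) lower. Mzt1, whose groups did not overlap, had an adjusted p of 0.0506 in limma with the block and was called there under median-of-ratios scaling. None of the 12 depolymerising and severing genes passed in either tool. Of 16 spindle and G2/M genes, Cdc20, the activator of the anaphase-promoting complex, was lower in 4 of 4 pairs, 2670 ± 287 in vehicle and 2396 ± 290 in acetate (−0.16, SE 0.03, adjusted p = 0.0148). edgeR with the block called 5 of the 23 microtubule-binding genes higher and 2 of the 16 spindle genes lower. Over all genes it called 6.51% higher and 5.38% lower. Without the block each of the 6 genes called by limma had an adjusted p of 1. With pair 2, 3 or 4 left out, Mapre3 alone among them was still called, and without pair 1 all but Tuba8 were.

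**Figure D4:**
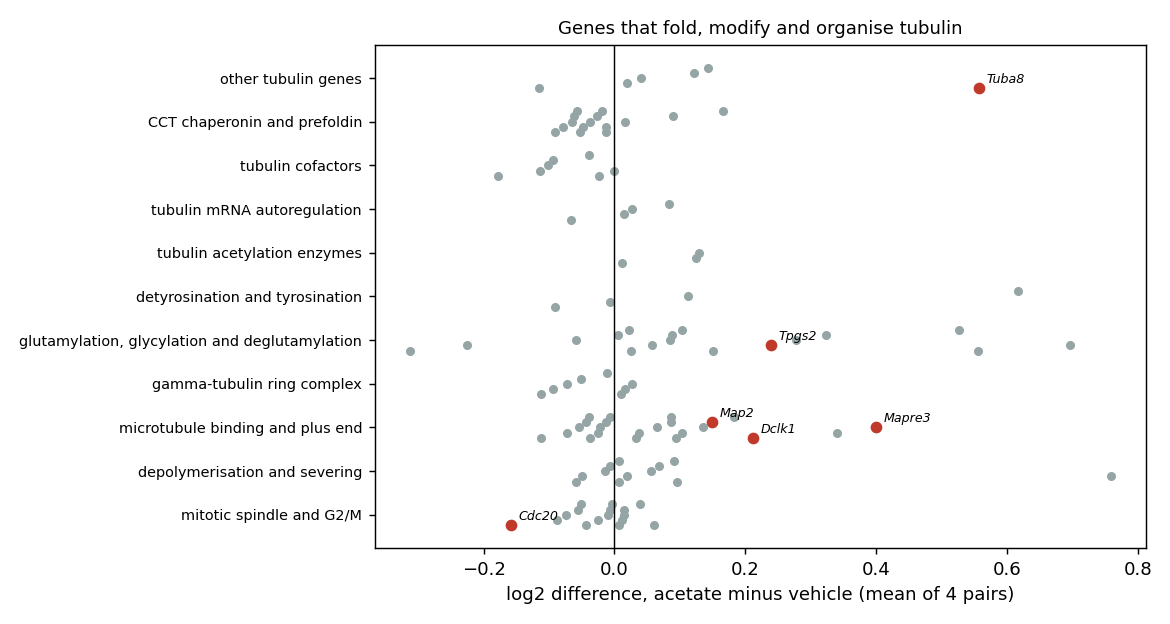
Mean log2 difference of acetate minus vehicle over 4 pairs for the 115 measured genes of 11 tubulin-related lists (rows), with genes called by limma with the replicate block in red and named and all others in grey. Most points lie near 0, and 5 of the 6 red points lie to the right of it.

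As a description over the 8 libraries, the genes whose log2 profile was most like that of Tubb2b among 10085 genes were Cdk18 (Pearson r = 0.955), mt-Rnr1 (0.954) and Rab4a (0.944). All of them were higher in acetate in 4 of 4 pairs, as Tubb2b was. For the summed isotypes they were Mtfr1l (0.908) and the ribosomal protein genes Rpl31 (0.880) and Rps3 (0.873), each higher in 2 of 4 pairs. The libraries share pairs and scaling, and no test was made.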

How the data were processed

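RNA from 8 cultures of 4T1 cells was sequenced. Per the submitters' processing notes, STAR and HTSeq were used with mm10 (GRCm38), and the kit was stranded, but whether HTSeq counted by strand is not given in the sources used here. The authors scaled the counts to total library size and filtered out genes seen in too few samples, and each gene in the table is above 0 in at least 4 of the 8 libraries. The deposited values are thus a normalised signal, and every library sums to 20000000. Whole reads could be recovered for 100% of the deposited values (tolerance 0.1 read), 19895088 to 29305620 per library.

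Differences were tested by limma 3.58.1 (R 4.3.3) on log2(value + 1) over 20189 genes, two-sided, adjusted by Benjamini-Hochberg, threshold 0.05, without a block. Fold changes on this scale understate those of low genes. edgeR 4.0.16 on the recovered reads was an alternative, as were the replicate block, median-of-ratios scaling, other pseudocounts, a filter and leaving out replicates. The replicate numbers pair the libraries: the labels give the libraries of a number a shared code. Within a number, the deviations from the group means correlated at 0.81, 0.27, 0.20 and 0.69. Libraries of unlike numbers were not compared in this way, so these values do not test the pairing. The study gives its n as independent experiments. The fits were tested on simulated data.

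Symbols matched 20004 of 20189 identifiers. Annotation was GENCODE M21 on GRCm38. The isotypes and gene lists were chosen with earlier results of these data known. Named pathway genes are those called with the block, plus Ttc5 and the acetylation enzymes. Genes called only by edgeR, and the markers, were named after their values were seen. Neighbours and pseudogenes were added after the values were seen.

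The coding ends of some isotypes are not reported here.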

Additional observations from a re-analysis of the deposited data

Results flagged for a closer look

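Of 64 groups of 4 libraries tested for an outlying library (the gap to the nearest library divided by the range, Dixon's 95% value), 10 held one, where chance gives about 3.2, or 1 in 20. In 8 of the 10 it was replicate 1. The Tubb4b level was highest in replicate 1 in vehicle (11449 against 7754 to 8187, gap over range 0.883) and in acetate (10611 against 7791 to 7994, 0.928). So was the Tuba1c level in vehicle (6595 against 4281 to 4536, 0.890) and in acetate (6320 against 4481 to 4510, 0.984). Replicate 1 also had the highest Tubb4b share of β reads in acetate (16.4%, against 11.6% in the lowest library, 0.910) and the highest α total in vehicle (20573 against 15495 to 16254, 0.851). It was lowest in acetate for Atat1 (195 against 478 to 511, 0.897) and for Map2 (556 against 1020 to 1102, 0.850). Replicate 4 had the lowest Tuba1b share of α reads in acetate (34.4% against 36.2% to 36.6%, 0.832) and the highest Tuba8 level in vehicle (83.3 against 38.2 to 42.0, 0.916). Without pair 1 the called isotypes were again 3.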

How the results depend on the processing

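Without the replicate block, 0 genes passed under every alternative run. The replicate block gave 1744 calls over all genes, 3 isotypes and 6 pathway genes. With the block, median-of-ratios scaling gave 1821 (1000 higher and 821 lower, against 1209 and 535), 3 and 6, and edgeR on recovered reads 2400, 3 and 15. Alternatives chosen after seeing the data, all with the block, were a pseudocount of 0.1 (1435, 3 and 5), a pseudocount of 5 (1764, 3 and 6) and a mean of 10 or more (2263, 3 and 11). Leaving out 1 pair under the block gave 1662, 617, 409 and 539 genes without pairs 1 to 4, with 3, 2, 1 and 3 isotypes and 8, 1, 1 and 1 pathway genes. Tubb2a, Tubb2b and Tuba1a were the isotypes called in every block fit on all pairs. As the isotypes were selected on this comparison, their calls are a description in every setting. Tpgs2 was not called under median-of-ratios scaling or with either other pseudocount. The number of isotypes whose share moved the same way in every pair was 4, and 4 to 7 with a pair left out, 7 without pair 1. No value reversed among called results. Of 160 alternative log2 differences of the isotypes 14 moved by more than the SD of the pairs, and of 60 alternative shares 4 did. The cause was not tested. Reads shared between close relatives limit the split within families, and the 1 to 18 reads of Tubb3 allow no comparison.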

Other observations

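The pseudogene Tubb4b-ps1, which shares stretches with Tubb4b, was listed at 15.4 ± 6.20 in the vehicle group and 15.5 ± 2.37 in the acetate group, as the mean and SD of 4 libraries each, with 11 to 32 reads per library. Tubb4b-ps2 had 2 to 8 reads and Tubb2a-ps2 0 to 2.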
